A study of Mus musculus with 16 samples.

Results

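The binding of reprogramming factors around Sox21 was examined through every ChIP-seq peak summit within 100 kb of the start of this gene. Sox21 lies on the minus strand of mouse chromosome 14, at chr14:118233232-118237030 in mm10 (GRCm38), and its start is the higher of these coordinates. The window held 38 of the 227116 summits of the series. Summits of all libraries within 100 bp of the next were merged into elements, which gave 21 elements near Sox21 of 172918 in all. In the following, downstream means past the 3′ end of the gene, towards lower coordinates.

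All libraries came from OG2 MEFs, embryonic mouse fibroblasts with an Oct4-GFP reporter. Every cocktail added Sox2 and Klf4 by retrovirus (SK) and differed only in its POU factor, and reprogramming took place in iCD1, a defined medium. Wild-type Oct4 was immunoprecipitated at days 1, 5 and 7. Oct4defSox2, an Oct4 whose interface with Sox2 carries the substitutions I21Y and D29R, was immunoprecipitated at days 1 and 5. Oct4 S151M and Oct6 M151S, in which both proteins exchanged 1 residue of the POU domain, were taken at day 1. For Sox2, libraries of days 1 and 5 were made with each of 3 cocktails, which held Oct4, Oct6 or Oct4defSox2. The study names a Santa Cruz or a Cell Signaling antibody for Sox2. Which of them served in each Sox2 library was not determined here, so the antibody may differ between these libraries. An Oct4 antibody served for all Oct4 forms, so endogenous Oct4 could not be told apart from the transgene, nor the Sox2 transgene from endogenous Sox2. Each of the 16 groups had 1 library, so no spread between replicates could be measured and no test was made. Of the 16, 3 were inputs, which are not analysed here. The Oct6 M151S library is labelled day 1 in its title and day 2 in another field.

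Sox21 encodes an HMG-box transcription factor of the SoxB group, which also holds Sox1, Sox2, Sox3 and Sox14. The protein is best known from neural development, where it counters the activity of Sox2 and its closest relatives. Sox proteins bind short CATTGT-like sites in the minor groove, and Oct4 binds the octamer ATGCAAAT through both parts of its POU domain. Where a Sox site and an octamer-like site stand side by side, Sox2 and Oct4 bind as a heterodimer. This composite SoxOct element is found at many enhancers of pluripotent cells. POU factors also bind as homodimers to the palindromic MORE element and to its longer form, MORE+1. The study selected a SoxOct element near Sox21 for experiments, by its lasting Oct4 binding and by the rising expression of the gene. Whether it is the composite element described here was not checked. The persistence of Oct4 is therefore given as a description and not as independent evidence.

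The sequences of the elements that carried most of the binding are shown first, all from the plus strand of GRCm38. The summits of the composite element lay at chr14:118230331-118230463, and the sequence at chr14:118230251-118230450 is printed, centred on its motif. The element held the only SoxOct match with fewer than 2 mismatches within 100 bp of these summits, and its capitals mark this match. The flanking element, at chr14:118230600-118230800, and the upstream element, at chr14:118261758-118261958, are shown with the 6-base Sox core in capitals. The Oct4 S151M element, at chr14:118226136-118226336, is shown with its MORE match in capitals.
Composite element: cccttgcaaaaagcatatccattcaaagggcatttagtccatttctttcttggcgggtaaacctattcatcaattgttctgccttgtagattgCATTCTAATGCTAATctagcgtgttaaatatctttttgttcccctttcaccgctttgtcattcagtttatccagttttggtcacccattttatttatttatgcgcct
Flanking element: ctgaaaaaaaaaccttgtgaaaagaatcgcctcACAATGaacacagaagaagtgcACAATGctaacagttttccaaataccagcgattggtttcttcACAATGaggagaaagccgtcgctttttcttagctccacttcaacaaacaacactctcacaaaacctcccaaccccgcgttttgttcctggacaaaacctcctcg
Oct4 S151M element: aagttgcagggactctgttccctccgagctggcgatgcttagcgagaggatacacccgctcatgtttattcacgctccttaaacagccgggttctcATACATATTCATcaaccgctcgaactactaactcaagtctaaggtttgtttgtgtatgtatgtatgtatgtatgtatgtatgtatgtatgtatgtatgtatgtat
Upstream element: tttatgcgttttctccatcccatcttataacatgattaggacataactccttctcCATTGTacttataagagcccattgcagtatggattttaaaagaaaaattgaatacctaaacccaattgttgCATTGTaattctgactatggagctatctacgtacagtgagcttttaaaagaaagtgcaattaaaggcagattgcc

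The SoxOct match lay at chr14:118230344-118230358 on the plus strand, 6679 bp downstream of the Sox21 start and 2881 bp past the 3′ end of the gene, between annotated genes. Its Sox part reads CATTCT and its POU part ATGCTAAT. Against CATTGT and the octamer, it carried 2 substitutions, G5C in the Sox part and A12T in the POU part, counted from the 5′ end of the match. The SoxOct consensus searched is degenerate and accepts the first, so the match counted as having 1 mismatch of 15 positions. Matches with at most 1 mismatch on either strand were found in 0.952% of the 226239 windows that reach 100 bp left and right of a summit, and in 0.0672% of equally long windows 2 kb away. The flanking element had 3 copies of the Sox core, which is CATTGT on one strand and ACAATG on the other. Of all summit windows, 22.7% had at least 1 copy, 3.18% at least 2 and 0.394% at least 3. In the printed sequences, the upstream element had 2 copies, and the composite and Oct4 S151M elements had 0. The printed composite sequence ends before the Sox2 summits at chr14:118230458 and chr14:118230463, and sequence past its end was not counted. It holds CTTTGT, a form that the count left out. The count of the core was added after the sequences had been seen, and the core is part of the longer single Sox motif.

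The summits were not spread evenly over the window. Of the 38 summits, 14 lay at the composite and flanking elements and 9 in a group of 4 elements 24.54 to 24.98 kb upstream of the Sox21 start. No summit lay within 3 kb of the start or inside the gene, and the nearest was 3904 bp away. The remaining elements were single summits of 1 library. In all, 17 of the 21 elements were bound in 1 library only, beside 84.2% of all elements of the series. The elements fell into 13 with POU factor summits only, 6 with Sox2 summits only and 2 with both, beside 6.88% with both over the series. The map of summits by library shows these positions.

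**Figure D1:**
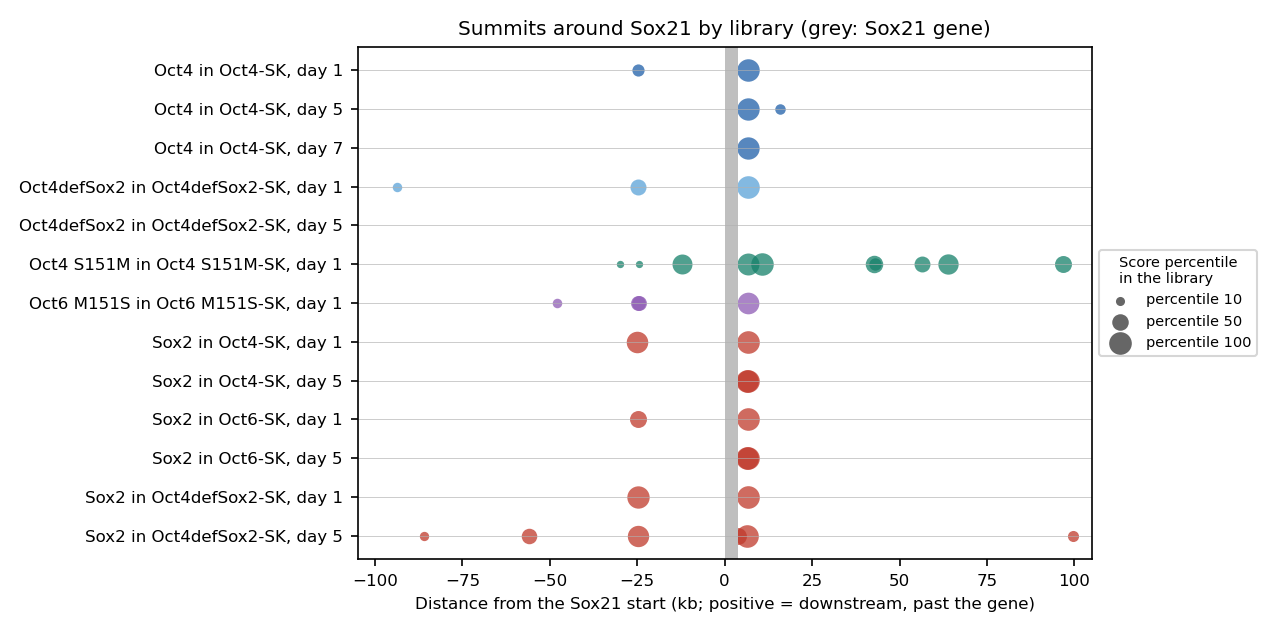
Each point is 1 summit, placed by its distance from the Sox21 start in kb (x axis) and by library (y axis), and point size gives the percentile of its score within the library. Points of 12 libraries stack at the composite and flanking elements just past the gene (grey), and a looser column stands about 25 kb upstream.

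The score of a summit is a −log10 p-value from MACS2 and grows with read depth, so it was compared only through ranks within a library. At the composite element, 11 of 13 libraries had a summit. Oct4 was present at all time points. Its score was 77.4 at day 1 (rank 100 of 8216 summits), 53.9 at day 5 (rank 120 of 4854) and 48.9 at day 7 (rank 101 of 3638). Over the whole series, Oct4 bound 25.6% of its day 1 elements again at day 5 and 13.8% at day 7. The Oct4 list became shorter with time, and the element stood in its top 1.22%, 2.47% and 2.78%. The other Oct4 element of day 1, in the upstream group, was bound on neither later day. At day 5 Oct4 had 1 further summit, 15.96 kb downstream, with a score of 5.39.

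The mutant Oct4defSox2 also bound the composite element at day 1, with a score of 221.8 (rank 55 of 31070). It thus stood in the top 0.177% of its library. Of all Oct4 day 1 elements, 60.5% were bound by Oct4defSox2 on that day. At day 5 Oct4defSox2 had no summit anywhere in the window. This library had 1038 summits in all, and only 2.39% of the day 1 elements of Oct4defSox2 and 11.0% of the day 5 elements of Oct4 were in it. With only the 1038 strongest summits of each library kept, the composite element still had summits of 9 libraries, among them Oct4 on all 3 days and Oct4defSox2 at day 1. With 1 library and no read depths in the files used here, the absence at day 5 could not be tested. Of 21911 protein-coding genes, 9.13% had a summit of this library within 100 kb.

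Both mutants of the exchanged residue had a summit at the composite element. Oct4 S151M scored 150.5 there (rank 6308 of 101170), with a fold enrichment of 30.3 over the local background. Oct6 M151S scored 6.34 (rank 2021 of 22804), with a fold enrichment of 2.91 and a −log10 q-value of 2.21. Of the Oct4 day 1 elements of the whole series, 81.5% were bound by Oct4 S151M and 10.5% by Oct6 M151S. Near Sox21 Oct6 M151S bound both Oct4 day 1 elements and Oct4 S151M 1 of them. The Oct6 M151S list reached down to a score of 2.30, while the other lists ended at 4.00 or above. Its summit at the composite element passed 4, but both of its summits in the upstream group had a score of 3.27 and did not. These lay in the same peak, with a fold enrichment of 2.28 and a −log10 q-value of only 0.521. Oct4 S151M also had a summit in the upstream group, in another element than Oct4.

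Sox2 ranked the composite element among its 10 strongest summits in 5 of 6 libraries. Merging within 50 bp left 3, since the day 1 summits of Oct6-SK and Oct4defSox2-SK cells, whose own windows had a best SoxOct match of 3 mismatches, then formed an element of their own. In Oct4-SK cells it was rank 2 of 15222 at day 1 (score 72.7) and rank 5 of 5832 at day 5 (score 81.7). In Oct6-SK cells, which received no exogenous Oct4, it was rank 8 of 3242 at day 1 (score 25.5) and rank 1 of 2673 at day 5 (score 69.8). In Oct4defSox2-SK cells it was rank 1 of 5794 at day 1 (score 87.0). The remaining library, Sox2 in Oct4defSox2-SK at day 5, had no summit at the composite element but had one at the flanking element, with a score of 170.4 (rank 6 of 21563). No other element of the series was among the 10 strongest in 5 Sox2 libraries, and 1 other was in 4. Oct4 and Sox2 summits coincided at 23.6% of Oct4 elements in Oct4-SK cells at day 1 and at 12.0% at day 5, and at the composite element on both days.

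The flanking element, 304 to 357 bp from the SoxOct match on the side of the gene, was bound by Sox2 at day 5 only. All 3 cocktails had a summit there, at rank 19 of 5832 in Oct4-SK (score 52.8), rank 2 of 2673 in Oct6-SK (score 68.4) and rank 6 of 21563 in Oct4defSox2-SK. No POU factor library had a summit there, but the Oct4 S151M peak with its summit at the composite element also covered the flanking element. That peak reached from chr14:118229908 to chr14:118230821, while the Oct6 M151S peak at the composite element ended at chr14:118230503. For the other POU factor libraries no peak extents were at hand. The windows of the flanking element held no SoxOct match with up to 2 mismatches. In Oct4-SK and Oct6-SK cells the flanking and composite summits were present together at day 5, whereas at day 1 each cocktail had 1 summit. In Oct4defSox2-SK cells the single summit lay at the composite element on day 1 and at the flanking element on day 5.

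Over the series, 6.67% of the Sox2 elements of Oct4-SK cells at day 1 were bound by Sox2 in Oct6-SK cells and 12.6% in Oct4defSox2-SK cells. At day 5 these shares were 18.9% and 41.6%. Near Sox21 the composite element was shared by all 3 cocktails at day 1. At day 5 it was shared by Oct4-SK and Oct6-SK, and the flanking element by all 3. With a merging distance of 250 bp both became 1 element, bound in 12 libraries, and 11 elements of the series were bound in at least as many. At 100 bp the composite element was 1 of 40 elements bound in at least 11 libraries.

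**Figure D2:**
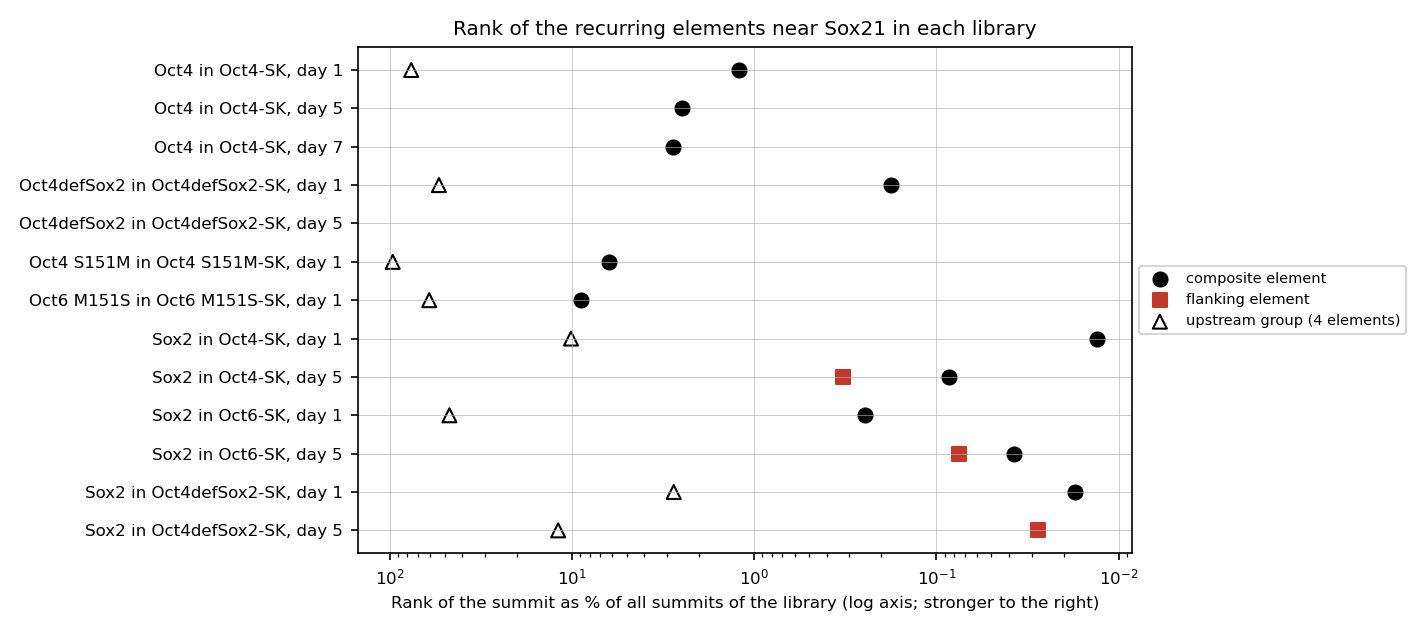
The rank of each summit, as a percentage of all summits of its library (x axis, log scale, stronger to the right), is shown by library (y axis) for the composite element, the flanking element and the strongest summit of the upstream group. The composite element stands at 1.22% to 2.78% for Oct4 and at 0.0131% to 0.247% for Sox2, and in each library with an upstream summit it ranks below the composite or flanking summit of the same library.

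The summits lay at several distances from the match. The POU factor summits lay between 20 bp before and 44 bp after the centre of the SoxOct match. Those of Oct4 were at 37, 10 and 29 bp for days 1, 5 and 7, and that of Oct4defSox2 at 4 bp. The Sox2 summits of Oct4-SK cells were close to the match on both days, at 28 and 13 bp, and that of Oct6-SK cells at day 5 was at 20 bp. The Sox2 summits of Oct6-SK and Oct4defSox2-SK cells at day 1 were farther away, at 112 and 107 bp. For Oct4defSox2-SK cells at day 5 the nearest Sox2 summit was at 304 bp.

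Such distances were compared with those at all 1236 Oct4 day 1 elements with a SoxOct match of up to 2 mismatches. The median distance of the nearest Sox2 summit within 500 bp was 64.5 bp in Oct4-SK cells at day 1 (394 sites), 74.0 bp in Oct6-SK cells (102 sites) and 113.0 bp in Oct4defSox2-SK cells (80 sites). A summit within 50 bp was found at 38.3% (95% Wilson interval 33.7 to 43.2), 33.3% (24.9 to 42.9) and 23.8% (15.8 to 34.1) of these sites. At day 5 the medians were 58.0, 54.5 and 85.0 bp. The distance at the Sox21 element was thus below the median in Oct4-SK cells on both days. In Oct6-SK cells it was above the median at day 1 and below it at day 5, where 80.2% of 86 sites had a distance of at least 20 bp. It was close to the median in Oct4defSox2-SK cells at day 1. In Oct4defSox2-SK cells at day 5, 12.3% of 130 sites had a distance of at least 304 bp. The intervals cover counting error among sites only.

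**Figure D3:**
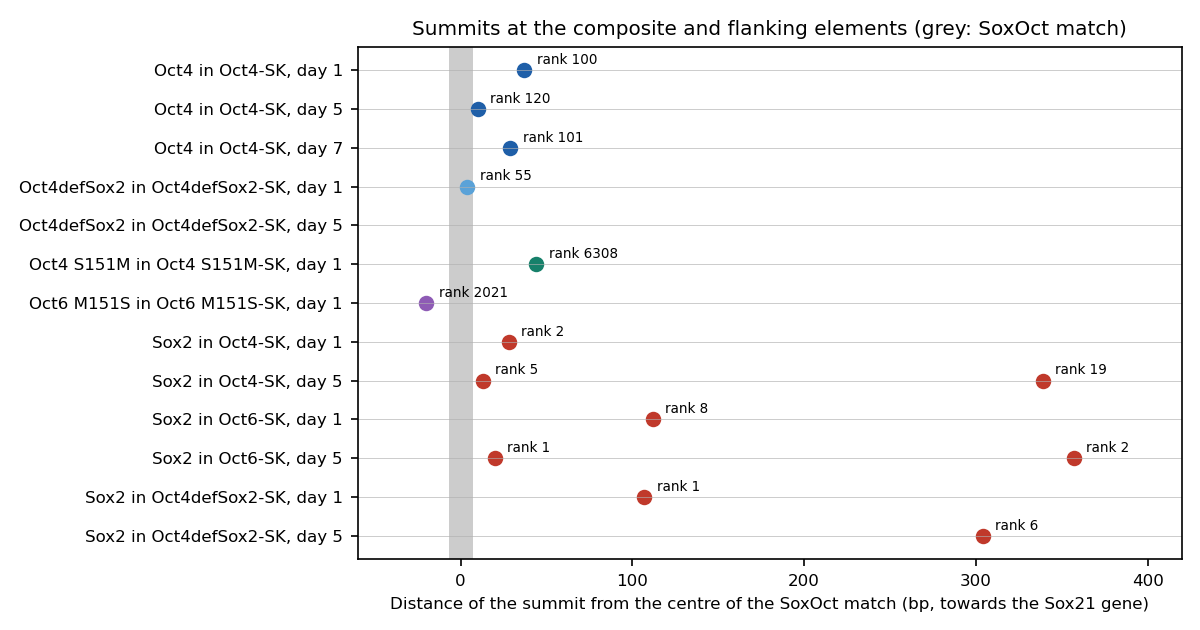
Distance of each summit from the centre of the SoxOct match in bp (x axis, towards the gene) by library (y axis), with its rank within the library. POU factor summits lie within 44 bp of the match (grey), and Sox2 summits fall at 13 to 28 bp, at 107 to 112 bp and at 304 to 357 bp.

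**Figure D4:**
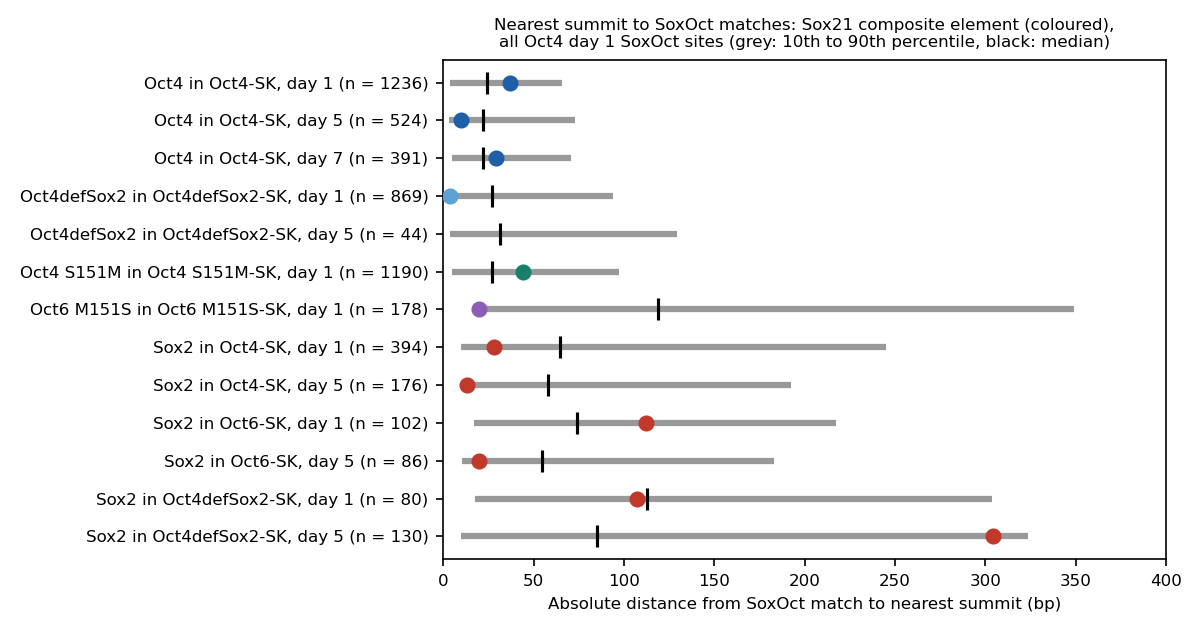
Absolute distance in bp from a SoxOct match to the nearest summit of each library (y axis), for the composite element near Sox21 (coloured points) and for the Oct4 day 1 elements with a SoxOct match (grey bars from the 10th to the 90th percentile, black ticks at the median, n sites in brackets). Sox2 in Oct4defSox2-SK cells at day 5 has the longest distance at Sox21, 304 bp, and Oct4defSox2 at day 5 has no point. The sites were chosen from the Oct4 day 1 elements, so all 1236 have an Oct4 day 1 summit, always less than 100 bp away. The Oct4 day 1 bar is therefore not comparable with the others.

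The upstream group lay between chr14:118261575 and chr14:118262010, starting 376 bp past the 3′ end of Gm4675, a long non-coding RNA gene that overlaps the Sox21 start on the opposite strand. Its 9 summits came from 8 libraries, spread over 435 bp. In the element with summits in most libraries, 5 in all, the scores were 22.6 for Sox2 in Oct4defSox2-SK cells at day 1 (rank 160 of 5794), 21.8 for the same at day 5 (rank 2565 of 21563), 7.03 for Sox2 in Oct6-SK cells at day 1 (rank 1523 of 3242), 7.49 for Oct4 at day 1 (rank 6258 of 8216) and 3.27 for Oct6 M151S. The other elements of the group held a summit of Oct4defSox2 at day 1 (score 10.7), of Sox2 in Oct4-SK cells at day 1 (score 15.2), and of Oct4 S151M (score 6.23) together with the second Oct6 M151S summit. The strongest summit of the group stood in the top 2.76% to 47.0% of each Sox2 library that had one and in the top 53.6% to 96.2% of the POU factor libraries. None of the 7 motifs searched was found in the 4 elements of the group.

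Oct4 S151M had 10 summits in the window, against a median of 7 per protein-coding gene, and 27.5% of genes had at least as many. Its strongest was not at the composite element. It lay 10.79 kb downstream of the Sox21 start, inside the RefSeq gene Gm32045, with a score of 427.0 (rank 1206 of 101170) and a fold enrichment of 69.4. No other library had a summit there, including Oct4 on any day. The window held a MORE match at chr14:118226232-118226243 with 2 substitutions from the plain palindrome, G3A and G9T counted from the 5′ end. The degenerate consensus searched accepts the latter, so it counted as 1 mismatch. A run of 14 copies of a 4-base repeat began 48 bp from the summit, and its part in the result was not tested. Of the 10 Oct4 S151M elements, 4 held a MORE or MORE+1 match with at most 1 mismatch, beside 24.5% of all Oct4 S151M elements. Those 4 were all elements of this library alone. The other 3 scored 51.0, 44.6 and 17.8, at 63.74 kb downstream, 12.11 kb upstream in an intron of Gm4675, and 56.34 kb downstream. The last also held the second SoxOct match found near a summit, with 2 mismatches. In all, 2 of 21 elements had a SoxOct match, beside 4.57% of the elements of the series. The composite element had no MORE or MORE+1 match.

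The other elements of the window were each bound in 1 library. Besides the 4 elements with a MORE or MORE+1 match, Oct4 S151M alone bound 4 more, with scores of 21.4 (percentile 53.0 of its library), 11.0 (24.8), 22.6 (56.8) and 6.41 (4.00). Sox2 in Oct4defSox2-SK cells at day 5 had 4 such summits with scores of 5.29 to 8.62, at percentiles 10.9 to 52.3. One of them lay 106 bp past the 3′ end of Sox21 and held a single Sox match, CCATTGTT, within 100 bp of the summit. Another, 85.9 kb upstream, held an octamer. No other of the 21 elements had an exact match of either motif near its summits, and sequence farther from summits was not searched. Oct4defSox2 at day 1 had a summit 93.7 kb upstream (score 6.23) with an AP-1 match, TGACTCA, and Oct6 M151S had one 47.9 kb upstream (score 2.42) with a KLF match, GGGTGTGGC. Exact matches were found in 12.1% of all summit windows for the single Sox motif (CCATTGT or CCTTTGT followed by any base but A), 5.71% for the octamer, 9.52% for AP-1 (TGACTCA or TGAGTCA) and 1.8% for KLF (GGGCGGGGC, GGGCGTGGC, GGGTGGGGC or GGGTGTGGC). All were searched on both strands. MORE matches were in 9.58% and MORE+1 matches in 3.67% of windows. The genes of the GENCODE annotation that reach into the window were Gpr180, which held 2 of the elements in an intron, 4933431J24Rik, Sox21, Gm4675, Mir6241, Gm9376, Gm23669 and Gm32093. RefSeq lists Gm4674, Gm31981 and Gm32045 there as well.

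Over all libraries, 4.31% of protein-coding genes had at least as many summits within 100 kb of their start as Sox21, whose 38 compare with a median of 17. The strongest Sox2 summit near Sox21 had a rank that few genes reached. Between 4 genes (Oct6-SK at day 5 and Oct4defSox2-SK at day 1) and 25 genes (Oct6-SK at day 1) had an equally high or higher summit in the same library, Sox21 included. Neighbouring genes share summits, so these counts are not of separate sites. For Oct4 the corresponding counts were 165, 276 and 257 genes at days 1, 5 and 7.

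Among the SoxB genes, Sox2 itself had 33 summits in 12 libraries within 100 kb, of which 20 were Sox2 summits. Of its 33 summits, 13 lay in the gene itself, whose coding sequence all these cells also carry in the retrovirus, and the part of the transgene in them was not tested. Sox14 had 26 in 12 libraries, Sox1 had 13 in 6 libraries and Sox3 had 6 in 2 libraries. Sox2 protein was thus found near Sox2, Sox14 and Sox21 in all 6 Sox2 libraries, near Sox1 in 3 and near Sox3 in 0. Of all protein-coding genes, 2.3% had a Sox2 summit within 100 kb in all 6 libraries, 41.7% in at least 3 and 12.3% in 0. The strongest wild-type Oct4 summit stood at percentile 98.8 near Sox21, at 84.2 near Sox14 and at 77.5 near Sox2, and Oct4 had no summit near Sox1 or Sox3, as was the case for 43.8% of genes. The strongest Sox2 summit stood at percentile 100 near Sox21, 99.98 near Sox2, 99.6 near Sox14 and 86.1 near Sox1. The most libraries at 1 element were 11 near Sox21, 10 near Sox14 and 9 near Sox2.

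The genes whose pattern was most like that of Sox21 were Nmnat2 (an enzyme of NAD synthesis), Gas2l3 (a cytoskeletal linker protein), Nr1h4 (the bile acid receptor FXR), H2-Q10 and H2-Q6 (MHC class I proteins). Likeness was the mean absolute difference, over the 13 libraries, of the percentile of the strongest summit within 100 kb. It was 2.97 percentile points for Nmnat2, 3.43 for Gas2l3, 3.83 for Nr1h4 and 4.56 for both H2-Q10 and H2-Q6, against a median of 63.0 over 21906 genes. Gas2l3 and Nr1h4 are neighbours and share their strongest summit in most libraries, as do H2-Q10 and H2-Q6, which belong to a family of near-identical genes where reads may be misplaced. Like Sox21, Nmnat2 and the H2-Q genes had summits in 12 libraries and lacked Oct4defSox2 at day 5.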

How the data were processed

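The members, gene lists and motifs were chosen with earlier results of these data known. The authors aligned paired-end reads to mm10 with Bowtie2 2.2.5 and called peaks per library with MACS2. Part of the chromatin was kept as an input control. Whether peak calling used it, or a list of excluded regions, is not given in the sources used here. The deposited summit score is the −log10 p-value of MACS2 at the summit, not scaled between libraries. Peak tables were deposited for the S151M and M151S mutants only, with a fold enrichment over local background (a ratio) and a −log10 q-value. Reads for Oct4 at day 7 were shorter than those of the other libraries.

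Summit lists of 13 libraries, of 1038 to 101170 summits, were used. Read depths were not in the files used here. Summits within 100 bp were merged into elements. Motifs were searched on both strands within 100 bp of a summit, in GRCm38.p6, with up to 2 mismatches for SoxOct, 1 for MORE and MORE+1 and 0 for the others. A further 154 summits off chromosomes 1 to 19, X and Y entered no motif share. Genes came from GENCODE and RefSeq. Elements bound in at least 3 libraries were described with their scores in every library, the others by counts and ranges. The single-library elements given with values of their own, such as the strongest of Oct4 S151M, were singled out after their values had been seen. The genes named were those that reach into the window, the SoxB genes, and the 5 protein-coding genes most like Sox21 in the percentile of their strongest summit, leaving out starts within 200 kb. Alternatives were merging within 50 or 250 bp, scores of at least 10, equal numbers of summits per library, 1 summit per peak, a window of 50 kb, Oct6 M151S scores of at least 4, 1 or 3 SoxOct mismatches and motif windows of 50 bp. No p-value was computed. Python 3.11.15 with numpy 2.4.6, pandas 2.3.3 and numba 0.67.0 was used, and the scripts were tested on simulated data.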

Additional observations from a re-analysis of the deposited data

How the results depend on the processing

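Of 35 alternatives, 24 left the count within 1.5 times. Merging within 250 bp raised the Oct4 day 1 elements shared with Oct4defSox2, with Sox2 and with both S151M and M151S mutants from 1 to 2 each, since the 4 upstream elements became 1. Merging within 50 bp left 1 element instead of 2 with Sox2 in all 3 cocktails on the same day, because the distant day 1 summits split from the composite element, which then held 9 libraries. A score of at least 10 left 24 summits, 12 elements and 0 Oct4 day 1 elements bound by both S151M and M151S mutants. The 1038 strongest summits of each library left 3 elements. The SoxOct elements numbered 1 with at most 1 mismatch, 7 with up to 3 and 1 within 50 bp of a summit, instead of 2. Oct4 on all 3 days at 1 element held under each alternative run. The files used here hold no read depths and each group had 1 library, so presence and absence could not be tested. No paired analysis was possible because each group had 1 library.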
